A study of Mus musculus with 12 samples.

Results

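The genes described here are 10 members of the unfolded protein response and the integrated stress response, the programs by which cells react to misfolded protein and to impaired translation. They were named for their known roles, with earlier results of these data known, and are 10 of 35534 genes with a transcript in the files. They fall into an ATF4 arm of 6 genes (Atf4, Ddit3, Atf5, Trib3, Chac1 and Asns) and an XBP1 and ATF6 arm of 4 genes (Xbp1, Hspa5, Hsp90b1 and Herpud1).

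The libraries hold poly(A) RNA of dorsal root ganglia, where the cell bodies of sensory neurons lie, taken from mice aged 24 weeks. Labelled by genotype and sex, they are 1 Q84 male, 5 Q84 females, 3 WT males and 3 WT females, 12 in all. YAC Q84 mice carry the human ATXN3 gene with an expanded CAG repeat on a yeast artificial chromosome, as a model of spinocerebellar ataxia type 3 (SCA3), and keep their own Atxn3, as WT mice do. The labels give neither strain, zygosity nor whether libraries came from separate animals, so the spread behind each p-value is that between libraries and may be technical. Q84 males are represented by 1 library.

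In the integrated stress response, stress kinases phosphorylate the translation factor eIF2, which lowers protein synthesis in general and raises translation of Atf4 mRNA. ATF4 protein then activates genes of amino acid supply and, when stress lasts, of cell death. In the other branches of the unfolded protein response, the sensor IRE1 splices Xbp1 mRNA and the sensor ATF6 is cleaved, and the products of both induce chaperones of the endoplasmic reticulum (ER) and the machinery that removes misfolded protein. Because ATF4 is set largely by translation and XBP1 by splicing, the mRNA levels given here are not measures of the activity of either protein.

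Libraries were compared first as labelled and then without 2 libraries that go against their labels. The second comparison was chosen with earlier results of these data known. Reads of human ATXN3 could be placed on mouse Atxn3, which was not tested here. An Atxn3 transcript of 1000 bases followed the labels in 10 of the 12 libraries. It lay at 62.7 to 79.4 TPM (a level corrected for transcript length and library size) in 5 Q84 libraries and at 0 to 0.285 TPM in 5 WT libraries. It lay at 0.061 TPM in the library labelled Q84 female 5, however, and at 34.0 TPM in the one labelled WT female 2. No library was moved to another group, and each member's fold change is given for all 12 and for the other 10. Total estimated counts ran from 66490481 to 86891563 per library, and mitochondrially encoded genes took 8.91 to 11.9% of them in Q84 libraries and 6.85 to 9.55% in WT libraries.

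The promoters below are shown for the response elements they hold, of 4 motifs searched. Windows of 300 bases, 250 before and 50 after the start of transcription, were taken from RefSeq for all 10 genes (GRCm38.p6; Atf5 has a pair of promoters) and searched on both strands. The ER stress response element, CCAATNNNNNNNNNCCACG, is bound by ATF6 and XBP1 together with NF-Y. It was found in 0.119% of 32851 promoters, and among the members in those of Hspa5 and Hsp90b1. The core of the amino acid response element bound by ATF4 with C/EBP factors, TGATGNAA, was found in 3.97% of promoters. Among the members it occurred in those of Chac1, Asns and Herpud1, and in that of Trib3 at positions 15 to 22 after the start. Neither the CRE core TGACGTCA (1.79% of promoters) nor the sequence TGACGTGG (0.676%), which XBP1 binds, was in any member's window. The windows of Atf4, Ddit3, Atf5 and Xbp1 held none of the 4 motifs. No match of 1 motif overlapped a match of another, and a match is a match of letters only. Other forms of these elements, such as shorter ER stress elements, were not searched. A promoter without a match, or with a match of 1 motif alone, may therefore hold another element, Herpud1 included. The 250 bases before the start are printed 5′ to 3′ on the strand of the gene, with the matched letters in capitals. They lie at chr2:119350992-119351241 (Chac1, plus strand), chr6:7693210-7693459 (Asns, minus strand), chr8:94386179-94386428 (Herpud1, plus strand), chr2:34771840-34772089 (Hspa5, plus strand) and chr10:86705445-86705694 (Hsp90b1, minus strand).
Chac1: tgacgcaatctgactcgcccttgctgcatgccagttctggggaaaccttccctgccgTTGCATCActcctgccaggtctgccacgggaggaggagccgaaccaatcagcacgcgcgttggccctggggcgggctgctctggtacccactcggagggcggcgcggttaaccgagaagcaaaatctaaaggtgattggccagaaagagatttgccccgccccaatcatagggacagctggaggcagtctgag
Asns: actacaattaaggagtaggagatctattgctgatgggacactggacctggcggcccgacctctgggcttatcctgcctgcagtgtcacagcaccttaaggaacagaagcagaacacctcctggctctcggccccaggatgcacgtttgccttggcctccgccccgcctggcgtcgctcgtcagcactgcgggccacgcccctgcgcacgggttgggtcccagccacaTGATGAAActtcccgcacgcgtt
Herpud1: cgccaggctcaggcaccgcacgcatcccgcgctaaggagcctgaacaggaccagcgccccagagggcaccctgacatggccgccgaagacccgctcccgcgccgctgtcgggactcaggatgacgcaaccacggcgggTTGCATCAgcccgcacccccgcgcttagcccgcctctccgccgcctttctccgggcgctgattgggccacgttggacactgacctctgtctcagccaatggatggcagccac
Hspa5: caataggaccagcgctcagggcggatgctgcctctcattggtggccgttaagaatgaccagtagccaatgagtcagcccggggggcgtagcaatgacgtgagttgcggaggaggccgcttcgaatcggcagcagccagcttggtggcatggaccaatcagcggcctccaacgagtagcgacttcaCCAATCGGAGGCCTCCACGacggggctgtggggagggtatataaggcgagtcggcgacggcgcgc
Hsp90b1: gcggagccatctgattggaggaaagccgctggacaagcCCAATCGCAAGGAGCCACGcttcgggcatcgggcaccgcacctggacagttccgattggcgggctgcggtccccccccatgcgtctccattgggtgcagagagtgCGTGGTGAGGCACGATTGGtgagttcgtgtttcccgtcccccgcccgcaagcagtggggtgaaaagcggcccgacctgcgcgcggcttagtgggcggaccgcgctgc
In Chac1 and Herpud1 the capitals read the amino acid response core on the opposite strand, at positions -193 to -186 and -112 to -105 from the start. In Asns they read it on the gene's own strand at -23 to -16. Hspa5 held the ER stress element at -65 to -47. Hsp90b1 held a forward copy at -212 to -194 and a reverse copy at -107 to -89.

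The members span a wide range of levels in the ganglion. On the TPM scale, over all 12 libraries, the ER chaperones Hsp90b1 (299 ± 28.7 TPM, SD, n = 12) and Hspa5 (277 ± 30.2 TPM) were highest. Their spreads overlapped, but the same libraries gave both values, and the difference between these genes was not tested. Asns, which makes asparagine, followed at 217 ± 17.1 TPM. Atf4 lay at 98.0 ± 13.6 TPM and Xbp1 at 67.1 ± 5.81 TPM. Ddit3, at 48.9 ± 5.67 TPM, and Herpud1, at 41.9 ± 6.98 TPM, overlapped in their spread. The lowest were Atf5 at 8.11 ± 1.83 TPM, Chac1 at 3.03 ± 0.978 TPM and Trib3 at 1.22 ± 0.236 TPM.

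The spread between libraries followed the level only in part. The coefficient of variation over all 12 libraries was 7.91% for Asns and 8.65% for Xbp1, and 19.3% for Trib3, 22.5% for Atf5 and 32.2% for Chac1. Trib3 rests on 77 to 160 estimated counts per library and Chac1 on 123 to 378, the fewest of the members, while Atf4 rests on 6380 to 10102 and Hsp90b1 on 35330 to 48867. All 10 members passed the filter on low counts in every comparison.

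Over the 12 libraries as labelled, no member passed the test for Q84 against WT (edgeR quasi-likelihood test with sex in the model, Benjamini-Hochberg adjustment over all 18868 genes tested, threshold 0.05), and 1 gene in all passed, 0.0053% of those tested. Of the 6 genes of the ATF4 arm, all 6 had a negative log2 fold change of Q84 over WT, with a median of -0.256, against a median of 0.013 over all genes tested. Of the 4 genes of the XBP1 and ATF6 arm, 3 had a positive and 1 a negative fold change, with a median of 0.036. At an unadjusted p under 0.05, 3 members were lower in Q84 libraries (Atf4, Ddit3 and Chac1), and of all genes 8.56% were. DESeq2, the alternative test, called Atf4 (adjusted p = 0.0189) and Ddit3 (adjusted p = 0.0364) in the same 12 libraries, among 620 genes in all, whereas limma-voom called neither (0.115 for Atf4 and 0.161 for Ddit3).

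Without the libraries labelled Q84 female 5 and WT female 2, Atf4 and Ddit3 fell in Q84 ganglia. They are 2 of the 6 genes of the ATF4 arm; 4.93% of the 18714 genes tested passed with lower levels in Q84. DESeq2 and limma-voom called the same 2 genes of that arm, among 1354 and 843 genes called lower in all. No gene of the XBP1 and ATF6 arm passed by edgeR, DESeq2 or limma-voom (1, Hspa5, was higher at an unadjusted p under 0.05, as 8% of all genes were), and 1.52% of all genes passed with higher levels. The median log2 fold change was -0.334 over the ATF4 arm and 0.059 over the XBP1 and ATF6 arm, against 0.014 over all genes. The difference between the arms was not tested.

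**Figure D1:**
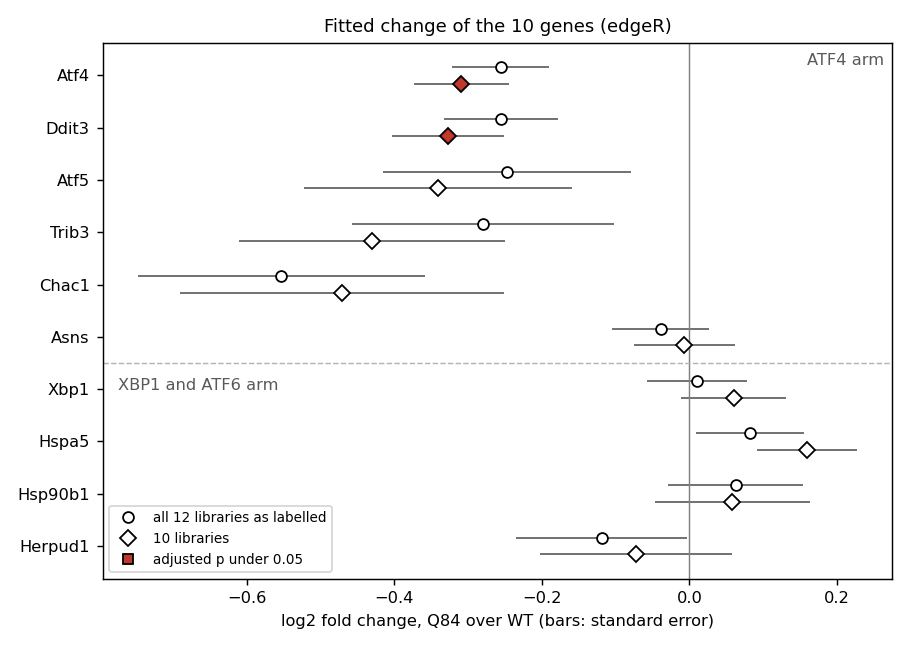
Log2 fold change of Q84 over WT for the 10 genes, with the standard error as bars, for all 12 libraries (circles) and for the 10 libraries without Q84 female 5 and WT female 2 (diamonds). The 6 genes of the ATF4 arm lie left of 0 in both fits, Asns closest to it, and Atf4 and Ddit3 are filled because they passed at an adjusted p under 0.05 in the 10 libraries.

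Atf4, the transcription factor at the centre of the integrated stress response, held 98.0 CPM in Q84 male 1 and 103, 96.7, 96.9 and 91.4 CPM in Q84 females 1 to 4 (counts scaled to library size by TMM). It held 117, 116 and 123 CPM in WT males 1 to 3, and 116 and 127 CPM in WT females 1 and 3. These groups did not overlap. The mean was 97.1 ± 4.07 CPM in Q84 and 120 ± 5.16 CPM in WT libraries (SD, n = 5 each). The log2 fold change was -0.31 (SE 0.0649, edgeR adjusted p = 0.0143). The library labelled Q84 female 5 held 97.8 CPM, inside the range of the other Q84 libraries. The library labelled WT female 2 held 103 CPM, also inside the Q84 range and below every other WT library. Over all 12 libraries the mean was 97.3 ± 3.65 CPM in Q84 and 117 ± 8.37 CPM in WT libraries (SD, n = 6 each), with a log2 fold change of -0.26 (SE 0.0658, edgeR adjusted p = 0.129).

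Ddit3, which encodes the pro-apoptotic factor CHOP and is a target of ATF4, held 19.3 CPM in Q84 male 1 and 20.6, 20.5, 20.8 and 20.3 CPM in Q84 females 1 to 4. It held 23.8, 23.4 and 21.9 CPM in WT males 1 to 3, and 25.4 and 27.6 CPM in WT females 1 and 3. The groups did not overlap, and the spread was narrower in Q84. The mean was 20.3 ± 0.588 CPM in Q84 and 24.4 ± 2.20 CPM in WT libraries (SD, n = 5 each). The log2 fold change was -0.33 (SE 0.0760, edgeR adjusted p = 0.0250). The libraries labelled Q84 female 5 and WT female 2 held 22.9 and 22.2 CPM, both above the range of the other Q84 libraries and inside that of the other WT libraries. Over all 12 libraries the log2 fold change was -0.26 (SE 0.0772, edgeR adjusted p = 0.159). On the opposite strand, exons of Mars share 68 bases with Ddit3 in GENCODE M21, and no source used here says whether counting used strand, so reads there cannot be told apart. Mars itself held 27.5 ± 3.37 CPM in Q84 and 27.5 ± 2.51 CPM in WT libraries (SD, n = 5 each).

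The calls of both genes depend on single libraries. In the 10 libraries Atf4 did not pass without Q84 male 1 (adjusted p = 0.0560) or without WT female 3 (adjusted p = 0.0966). Ddit3 did not pass without any of Q84 male 1 (0.0800), Q84 female 1 (0.0564), Q84 female 2 (0.0550), WT female 1 (0.0664) or WT female 3 (0.140), each an edgeR adjusted p. Over all 12, leaving out Q84 female 5 alone brought both past the threshold (adjusted p = 0.0423 for Atf4 and 0.0485 for Ddit3).

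On the TPM scale Atf4 and Ddit3 separated the groups in all 12 libraries as labelled. Atf4 lay between 78.0 and 95.8 TPM in the 6 Q84 libraries and between 100.2 and 118 TPM in the 6 WT libraries. Ddit3 lay between 40.8 and 47.1 TPM in Q84 and between 48.6 and 60.8 TPM in WT libraries. Of the genes tested, 2.18% had every Q84 value below every WT value in TPM. Each library's TPM values add to the same total, and mitochondrially encoded genes held 21.0 to 26.5% of that total in Q84 libraries and 17.0 to 21.9% in WT libraries. Their part in the separation was not tested.

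**Figure D2:**
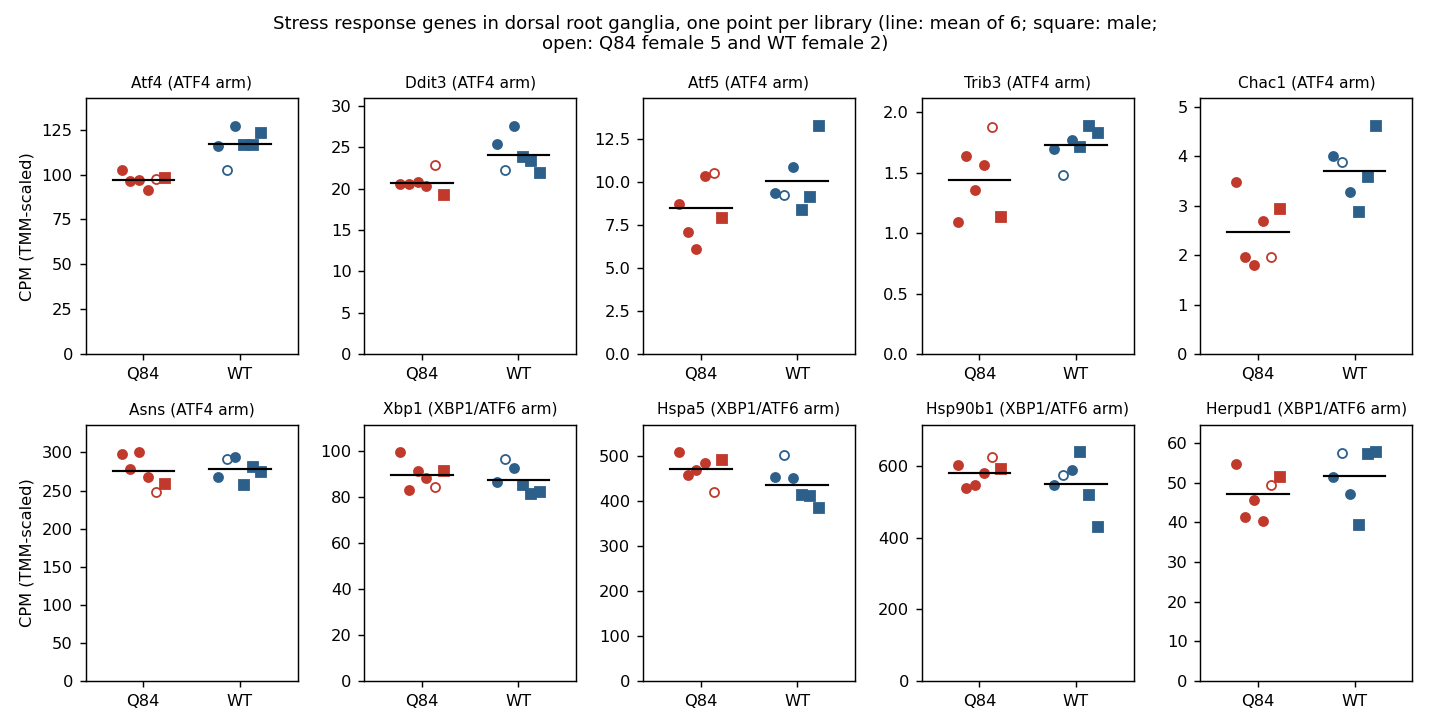
Level of each of the 10 genes in CPM (TMM-scaled, axes from 0) in the 6 Q84 libraries (red) and the 6 WT libraries (blue), with the mean of each group as a line, males as squares and the libraries labelled Q84 female 5 and WT female 2 as open points. Atf4 lies at 91.4 to 103 CPM in the 6 Q84 libraries and at 103 to 127 CPM in the 6 WT libraries, while Asns, Xbp1, Hsp90b1 and Herpud1 overlap widely.

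Trib3, a pseudokinase that restrains ATF4 signalling, held 1.13 CPM in Q84 male 1 and 1.09, 1.64, 1.36 and 1.56 CPM in Q84 females 1 to 4. The 5 WT libraries of the 10 lay between 1.70 and 1.89 CPM. The groups did not overlap but the gene did not pass (log2 fold change -0.43, SE 0.180, edgeR adjusted p = 0.205). Lower Q84 levels without overlap were found for 3 members, Atf4, Ddit3 and Trib3, and for 5.96% of all genes tested. The library labelled Q84 female 5 held 1.88 CPM, within the WT range, and the library labelled WT female 2 held 1.48 CPM, within the Q84 range. Over all 12 libraries the log2 fold change was -0.28 (SE 0.178, edgeR adjusted p = 0.515).

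Chac1, which degrades glutathione and is a target of the ATF4 pathway, had the most negative fold change of the members in both fits. It held 2.94 CPM in Q84 male 1, 3.48, 1.97, 1.79 and 2.69 CPM in Q84 females 1 to 4, and 1.96 CPM in the library labelled Q84 female 5. It held 2.88, 3.58 and 4.62 CPM in WT males 1 to 3, 4.01 and 3.27 CPM in WT females 1 and 3, with 3.88 CPM in WT female 2. The groups overlapped. Over all 12 libraries the mean was 2.47 ± 0.672 CPM in Q84 and 3.70 ± 0.607 CPM in WT libraries (SD, n = 6 each), and every Q84 library lay below the WT mean. The log2 fold change was -0.55 (SE 0.194, edgeR adjusted p = 0.222), and -0.47 (SE 0.220, adjusted p = 0.256) in the 10 libraries.

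Atf5, a factor translated under stress much as ATF4 is, lay between 6.12 and 10.4 CPM in the 5 Q84 libraries of the 10 and between 8.39 and 13.3 CPM in the 5 WT libraries. Its log2 fold change was -0.34 (SE 0.182, edgeR adjusted p = 0.329), and -0.25 (SE 0.168, adjusted p = 0.550) over all 12. Exons of Nup62 and of Il4i1 share 82 bases with Atf5 on the opposite strand. Asns, a well-known target of ATF4, had the fold change nearest to 0 of the arm, though its difference from the other 5 genes was not tested. It lay between 258 and 300.0 CPM in Q84 and between 257 and 295 CPM in WT libraries, with a log2 fold change of -0.01 (SE 0.0686, edgeR adjusted p = 0.973), whose sign changed with the scaling, and of -0.04 (SE 0.0661, adjusted p = 0.842) over all 12. The 2 targets that hold the amino acid response core before the start, Chac1 and Asns, thus had the most and the least negative fold change of the arm in the 10 libraries.

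In the other arm, Hspa5, the ER chaperone BiP that also holds the stress sensors inactive, was the gene nearest to the threshold. It held 490 CPM in Q84 male 1 and 507, 458, 468 and 484 CPM in Q84 females 1 to 4. It held 413, 411 and 384 CPM in WT males 1 to 3, and 452 and 450 CPM in WT females 1 and 3. The groups did not overlap, which in the higher direction held for 1 member and for 2.71% of all genes. The gene did not pass (log2 fold change 0.16, SE 0.0677, edgeR adjusted p = 0.213). The library labelled Q84 female 5 held 419 CPM, below the other Q84 libraries, and the library labelled WT female 2 held 501 CPM, above the other WT libraries. As labelled, the 12 libraries gave a log2 fold change of 0.08 (SE 0.0733, edgeR adjusted p = 0.668). The 3 WT males were the 3 lowest of all 12 libraries, and among females the log2 fold change was 0.10 (SE 0.0875, adjusted p = 0.587) in 6 libraries and 0.00 (SE 0.0819, adjusted p = 0.999) in 8.

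Xbp1, the transcription factor of this arm, lay between 82.9 and 99.2 CPM in Q84 and between 81.2 and 92.3 CPM in WT libraries of the 10 (log2 fold change 0.06, SE 0.0711, edgeR adjusted p = 0.712). Hsp90b1, the chaperone GRP94, lay between 540.0 and 604 CPM in Q84 and between 431 and 639 CPM in WT libraries (log2 fold change 0.06, SE 0.105, adjusted p = 0.823). Herpud1, an ER membrane protein of the degradation machinery that ATF4 can also raise, lay between 40.4 and 54.8 CPM in Q84 and between 39.5 and 57.7 CPM in WT libraries (log2 fold change -0.07, SE 0.130, adjusted p = 0.824). In each of the 3 genes the groups overlapped. In the 12 libraries the log2 fold changes were 0.01 for Xbp1 (SE 0.0676, edgeR adjusted p = 0.970), 0.06 for Hsp90b1 (SE 0.0913, adjusted p = 0.812) and -0.12 for Herpud1 (SE 0.116, adjusted p = 0.699). A stretch of 273 bases of Hsp90b1 is identical in the pseudogene 1810014B01Rik, which averaged 3.5 estimated counts. That estimate itself depends on how reads of the stretch were divided between the genes, which was not tested.

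Set against the Atxn3 transcript rather than the label, the 2 libraries that go against their labels showed no common pattern. The library labelled Q84 female 5, with 0.061 TPM of the transcript, lay inside the range of the other 5 Q84 libraries for 4 of the 10 members and inside that of the other 5 WT libraries for 7. The library labelled WT female 2, with 34.0 TPM, lay inside the Q84 range for 7 members and inside the WT range for 6. For Atf4, both lay inside the Q84 range. For Ddit3, both lay inside the WT range. For Hspa5, Trib3 and Chac1 they parted: in Hspa5 and Trib3 each lay inside the range of the libraries of the other label, and in Chac1 each lay inside the range of its own label.

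**Figure D3:**
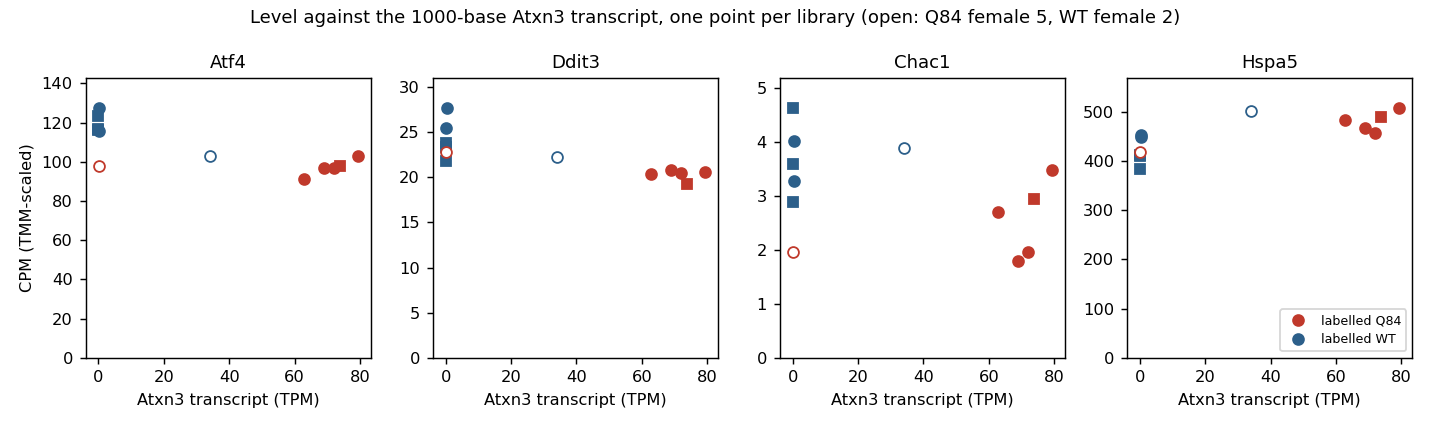
Level of Atf4, Ddit3, Chac1 and Hspa5 in CPM (vertical axes from 0) against the 1000-base Atxn3 transcript in TPM, 1 point per library, coloured by the labelled genotype, with Q84 female 5 and WT female 2 open. Q84 female 5, at 0.061 TPM, holds 97.8 CPM of Atf4 beside WT libraries at 116 to 127 CPM, and WT female 2, at 34.0 TPM, holds 501 CPM of Hspa5.

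Averaged per library as log2(CPM + 0.5) minus the WT mean, the ATF4 arm lay below 0 in all 6 Q84 libraries, from -0.36 in Q84 female 3 to -0.17 in Q84 female 1, against -0.11 to 0.12 in the 6 WT libraries. The XBP1 and ATF6 arm lay between -0.08 and 0.16 in Q84 and between -0.11 and 0.15 in WT libraries. The Q84 and WT libraries were apart on the first measure and overlapped on the second. Taken singly, 0 of the 6 genes of the ATF4 arm kept the groups apart in CPM in the 12 libraries. The members were chosen with such results known, so this is a description without a test.

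**Figure D4:**
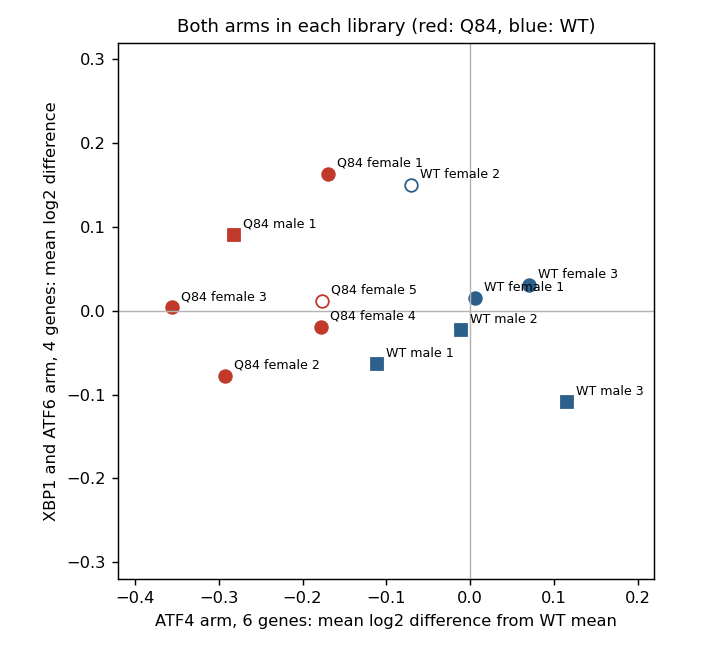
Mean difference from the WT mean, in log2(CPM + 0.5), of the 6 genes of the ATF4 arm (horizontal) and the 4 genes of the XBP1 and ATF6 arm (vertical) in each library, with Q84 in red and WT in blue. All 6 Q84 libraries lie at -0.17 or lower on the horizontal axis and all 6 WT libraries at -0.11 or higher, while both groups spread across 0 on the vertical axis.

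Within females, where sex cannot differ, Atf4, Ddit3 and Chac1 again had negative log2 fold changes, but no member passed. In the 8 libraries as labelled, Atf4 averaged 97.1 ± 4.06 CPM in Q84 (SD, n = 5) and 115 ± 12.3 CPM in WT (SD, n = 3), with a log2 fold change of -0.25 (SE 0.0819, edgeR adjusted p = 0.394). Ddit3 had -0.25 (SE 0.0992, adjusted p = 0.433) and Chac1 -0.64 (SE 0.234, adjusted p = 0.412). No gene passed there with edgeR (0% of 17241), while 1104 were lower and 722 higher at an unadjusted p under 0.05, limma-voom called 0 and DESeq2 called 149. In the 6 females left without Q84 female 5 and WT female 2, Atf4 had a log2 fold change of -0.31 (SE 0.0851, edgeR adjusted p = 0.0617) and Ddit3 of -0.35 (SE 0.107, adjusted p = 0.0909). In that comparison 5.12% of 17395 genes passed, with WT represented by 2 libraries, and DESeq2 called both genes (adjusted p = 0.0266 for Atf4 and 0.0217 for Ddit3).

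Males did not differ from females in any member at the threshold. In the fit of all 12 libraries with genotype in the model, 12 genes, 0.0636% of those tested, passed for male over female, and the adjusted p of every member was 1. The smallest unadjusted p was that of Ddit3, with 22.1 ± 2.05 CPM in 4 male and 22.6 ± 2.68 CPM in 8 female libraries (log2 fold change -0.12, SE 0.0822, edgeR unadjusted p = 0.155). Hspa5 averaged 425 ± 45.9 CPM in male and 467 ± 29.1 CPM in female libraries (log2 fold change -0.11, SE 0.0779, edgeR adjusted p = 1). With 1 Q84 male, the effect of genotype could not be fitted in males alone.

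Transcript use within the members was compared where 2 transcripts each held at least 10% of the gene, which Ddit3 and Atf5 did. Ddit3-201 made up 83.4 ± 2.97% of Ddit3 TPM in Q84 and 85.0 ± 1.93% in WT libraries (SD, n = 6 each). The exact permutation test, two-sided, gave p = 0.307 (adjusted over 2 genes, 0.532). Atf5-201 made up 73.2 ± 10.6% in Q84 and 76.8 ± 9.32% in WT libraries (two-sided exact permutation p = 0.532, adjusted 0.532). For Xbp1, 91.3% of TPM was assigned to Xbp1-201. No matched Xbp1 transcript differed by an intron shorter than 300 bases, so the product of IRE1 splicing was not analysed here.

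Beyond the members, the upstream regulators showed no gene past the threshold. Of 18 genes for stress kinases, ER sensors, eIF2 subunits and the eIF2 phosphatase, 0 passed in either fit by edgeR, DESeq2 or limma-voom, 1 was higher at an unadjusted p under 0.05 in the 10 libraries (against 8% of all genes), and the median log2 fold change was 0.096. The smallest p was that of Eif2ak2, the RNA-activated eIF2 kinase PKR, with 43.0 ± 7.36 CPM in Q84 and 33.8 ± 2.39 CPM in WT libraries (SD, n = 5 each; log2 fold change 0.35, SE 0.126, edgeR adjusted p = 0.136). Next came Ppp1r15b, a subunit that directs the phosphatase to eIF2, at 0.17 (SE 0.0825, adjusted p = 0.271).

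Of 25 other targets of ATF4, 23 were tested and 1 passed in the 10 libraries, a share near the 4.93% of all genes that were lower by the same test. Atf3, a stress-induced repressor of the same family that sensory neurons also raise after nerve injury, fell in Q84. It held 2.98 CPM in Q84 male 1 and 2.96, 3.84, 3.35 and 3.71 CPM in Q84 females 1 to 4, against 5.51, 6.60 and 7.52 CPM in WT males 1 to 3 and 5.94 and 4.27 CPM in WT females 1 and 3. The groups did not overlap, and the log2 fold change was -0.76 (SE 0.179, edgeR adjusted p = 0.0262). The library labelled Q84 female 5 held 4.89 CPM, above the other Q84 libraries, and the library labelled WT female 2 held 3.26 CPM, below the other WT libraries. Over all 12 libraries the log2 fold change was -0.49 (SE 0.213, adjusted p = 0.315). The call in the 10 libraries was lost without Q84 male 1 (0.171), Q84 female 1 (0.0542), Q84 female 3 (0.0503) or WT female 1 (0.103), each an edgeR adjusted p. Of the 23 genes, 18 had a negative and 5 a positive log2 fold change, with a median of -0.090. At an unadjusted p under 0.05 (edgeR, 10 libraries), 5 were lower, against 12.2% of all genes, and 1 higher, against 8%. Lower Q84 levels without overlap were found for 3 genes of the list, against 5.96% of all genes. In the 6 females edgeR called 1 of the 23 genes lower, where it called 662 of all 17395 genes tested lower. It was Nupr1, a stress-induced nuclear protein, with 2.98 ± 0.299 CPM in Q84 (SD, n = 4) and 7.63 ± 4.56 CPM in WT (SD, n = 2) libraries (log2 fold change -1.34, SE 0.293, edgeR adjusted p = 0.0314). DESeq2 called it there too, and limma-voom called no gene of the list. The WT mean rests on 2 widely differing libraries, and Nupr1 did not pass in the 10 (edgeR adjusted p = 0.176) or the 12 libraries (0.398). DESeq2 called Atf3 in the 10 libraries and Pycr1 in the 12. Gdf15 and Fgf21, stress hormones and ATF4 targets, were under the filter on low counts.

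None of the 12 aminoacyl-tRNA synthetases, which ATF4 raises with amino acid supply, passed in the 12 or the 10 libraries by edgeR, DESeq2 or limma-voom, with 1 lower at an unadjusted p under 0.05 in each (12.2% of all genes were in the 10). The median log2 fold change was -0.049 in the 10. Iars had the smallest p, with 90.9 ± 12.5 CPM in Q84 and 120 ± 21.7 CPM in WT libraries (SD, n = 5 each; log2 fold change -0.33, SE 0.134, edgeR adjusted p = 0.197). Wars followed at -0.21 (SE 0.170, adjusted p = 0.572). In the 6 females edgeR called 1 of the 12 lower, where it called 662 of all 17395 genes tested lower. This gene was Iars (log2 fold change -0.40, SE 0.101, edgeR adjusted p = 0.0437, against 2 WT libraries), which DESeq2 called as well and limma-voom did not.

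Of 19 other targets of XBP1, 1 passed in the 10 libraries, where 1.52% of all genes passed as higher. Sec24d, which encodes a cargo adaptor of the COPII coat that carries protein out of the ER, rose in Q84. It held 12.9 CPM in Q84 male 1 and 10.4, 11.5, 12.9 and 11.8 CPM in Q84 females 1 to 4, against 9.67, 10.7 and 10.5 CPM in WT males 1 to 3 and 9.12 and 8.01 CPM in WT females 1 and 3. The groups overlapped, and the log2 fold change was 0.40 (SE 0.104, edgeR adjusted p = 0.0426). Leaving out any library but Q84 female 1 or WT male 1 ended the call (edgeR adjusted p from 0.0656 to 0.199). Over all 12 libraries the log2 fold change was 0.36 (SE 0.101, adjusted p = 0.141), with 13.1 CPM in the library labelled Q84 female 5 and 10.6 CPM in the one labelled WT female 2. DESeq2 called Serp1 besides in the 10 libraries. The list had 13 positive and 6 negative log2 fold changes, with a median of 0.045. At an unadjusted p under 0.05 (edgeR, 10 libraries), 3 of its 19 genes were higher, against 8% of all genes, and 0 lower, against 12.2%.

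The remaining lists held no gene past the threshold in the 12 or the 10 libraries by edgeR or limma-voom, and DESeq2 called Fkbp2 alone, in the 10. Of 18 other targets of ATF6 and ER chaperones, 2 were lower at an unadjusted p under 0.05 in the 10 libraries, a share near that of all genes. They were Fkbp2, an ER folding enzyme, at a log2 fold change of -0.26 (SE 0.0839, edgeR adjusted p = 0.0924), and Manf, a secreted ER stress protein, at -0.27 (SE 0.0967, adjusted p = 0.139). The median of that list was 0.016. Of 10 genes of the VCP and ubiquitin machinery of ER-associated degradation, 1 was likewise lower at an unadjusted p under 0.05, a share also near that of all genes, the ubiquitin-conjugating enzyme Ube2g2, at -0.17 (SE 0.0725, adjusted p = 0.207). Ubxn4, which recruits VCP to the ER, had 0.17 (SE 0.0920, adjusted p = 0.340). Of 8 genes of the mitochondrial unfolded protein response, 0 were past an unadjusted p of 0.05, and the 2 of smallest p were the protease Clpp (log2 fold change -0.12, SE 0.0739, edgeR adjusted p = 0.430) and the chaperone Trap1 (-0.08, SE 0.0924, adjusted p = 0.712).

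**Figure D5:**
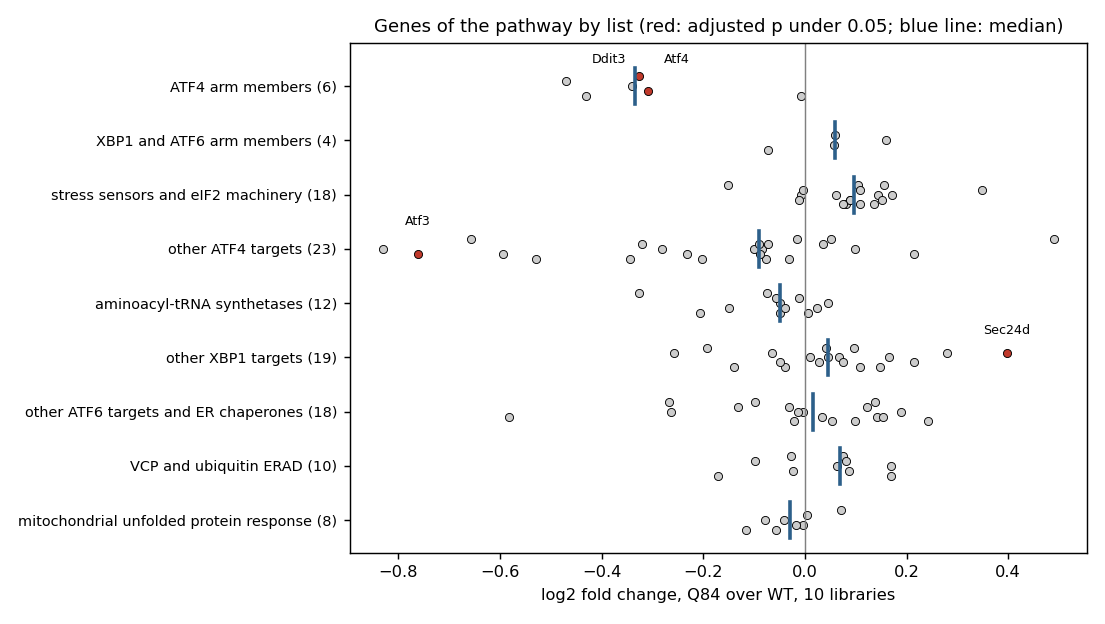
Log2 fold change of Q84 over WT in the 10 libraries for each tested gene of the 2 arms and 7 further lists (number of genes in brackets), with genes at an adjusted p under 0.05 in red and the median of each list as a blue line. Atf4, Ddit3 and Atf3 lie on the negative side and Sec24d, at 0.40, on the positive side, and the medians run from -0.334 for the ATF4 arm to 0.096 for the stress sensors and eIF2 machinery.

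Markers of cell types moved with genotype in the same libraries. In the 10 libraries, the summed level of 12 markers of non-peptidergic nociceptors and itch neurons was 435 to 572 CPM in Q84 and 700.1 to 1224 CPM in WT libraries, with 9 of 12 lower by edgeR, where 4.93% of all genes were, and none at 0. The sum of 5 markers of peptidergic nociceptors was 1273 to 1884 CPM in Q84 and 2365 to 2872 CPM in WT (3 of 5 lower). That of 8 markers of large myelinated neurons was 1385 to 1826 CPM in Q84 and 1872 to 2484 CPM in WT (3 of 8 lower). Of these 8, 7 had a negative and 1 a positive log2 fold change. The positive one, at 0.582, was higher at an unadjusted edgeR p under 0.05, as 8% of all genes were. In the 12 libraries Pvalb alone of the 8 was positive (0.344, edgeR adjusted p = 0.568). As labelled, with all 12 libraries, edgeR called no gene of these 3 lists. At an unadjusted p under 0.05, 9 of 12, 4 of 5 and 2 of 8 were lower, against 8.56% of all genes. The sums overlapped (435 to 1067 CPM in Q84 and 700.1 to 1224 CPM in WT for the non-peptidergic list). DESeq2 called 3 of 12, 2 of 5 and 1 of 8 lower there, and limma-voom none. The 8 pan-neuronal markers, none of which passed, summed to 7604 to 8283 CPM in Q84 and 8008 to 9669 CPM in WT. Of these 8, 7 had a negative and 1 a positive log2 fold change in both fits. At an unadjusted edgeR p under 0.05, 2 were lower in each, against 8.56% of all genes in the 12 libraries and 12.2% in the 10. The library labelled Q84 female 5 held a non-peptidergic sum of 1067 CPM, inside the WT range, and the library labelled WT female 2 one of 922 CPM, also inside it. Fewer cells of a type and less RNA per cell cannot be told apart in such tissue, and the part of these shifts in the lower Atf4, Ddit3 and Atf3 was not tested.

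Glia and other tissues varied too. Sums over the 10 libraries were 2124 to 2601 CPM in Q84 and 2281 to 2744 CPM in WT for 6 satellite glia markers, and 1793 to 3324 CPM in Q84 and 2016 to 3493 CPM in WT for 6 Schwann cell markers. They were 1036 to 1258 CPM in Q84 and 811 to 1200 CPM in WT for 6 fibroblast markers. Of these, Pdgfra rose by edgeR in the 10 libraries, where 1.52% of all genes passed as higher. All 6 had a positive log2 fold change there (median 0.524), and 4 were higher at an unadjusted edgeR p under 0.05, as 8% of all genes were. DESeq2 called Col1a2 and Pdgfra higher there, and limma-voom Pdgfra alone. In the 12 libraries DESeq2 called Col1a2, Col3a1 and Pdgfra higher, and edgeR and limma-voom called none. For 8 macrophage markers the sums were 59.4 to 88.3 CPM in Q84 and 39.0 to 87.8 CPM in WT, and for 6 plasma and B cell markers 24.8 to 48.2 CPM in Q84 and 20.6 to 48.1 CPM in WT. Markers of red blood cells (462 to 1826 CPM in Q84, 174 to 1033 CPM in WT), adipocytes (4.72 to 71.8 CPM in Q84, 3.32 to 10.5 CPM in WT) and skeletal muscle (2.75 to 817 CPM in Q84, 2.84 to 232 CPM in WT) reached their highest sums in Q84. No gene of these 3 lists passed by edgeR in the 10 libraries, where DESeq2 and limma-voom each called Hba-a1 and Plin1 higher. At an unadjusted edgeR p under 0.05, all 5 red blood cell, 3 of 5 adipocyte and 0 of 6 muscle markers were higher there, against 8% of all genes. Of 8 immediate early genes 7 were tested, with 5 positive and 2 negative log2 fold changes and a median of 0.581 in the 10 libraries. There edgeR called Arc lower (-1.53, adjusted p = 0.0159), where 4.93% of all genes passed as lower. In the same libraries DESeq2 also called Egr1 higher (0.99, edgeR adjusted p = 0.104). In the 6 females edgeR called Fos (0.97, adjusted p = 0.0376) and Egr1 (1.42, adjusted p = 0.0131) higher, against 2 WT libraries. It called 229 of all 17395 genes tested higher there. The part of these lists in the members' values was not tested.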

How the data were processed

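Poly(A) RNA of 12 libraries was sequenced, and the authors deposited, per the file headers, estimated counts, lengths and TPM for 116313 transcripts in each library. The submitters' processing notes name STAR 2.7.10b, kallisto 0.46.2 and GRCm39 without their roles. Transcript release and strand setting are not given in the sources used here. No scaling between libraries was applied to the estimated counts as deposited, whereas TPM, as deposited, adds to a fixed total after correction for length.

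Transcripts were matched to genes by Ensembl identifier without version in GENCODE M21, a GRCm38 annotation used for names only (98.3% matched). Estimated counts were summed per gene, rounded, filtered with filterByExpr, scaled with TMM and tested with the robust quasi-likelihood test of edgeR 4.0.16 with sex and genotype in the model (genotype alone within females). P-values were adjusted over all genes tested by Benjamini-Hochberg, with a threshold of 0.05. Standard errors are the absolute log2 fold change over the square root of F. CPM values are TMM-scaled over all 12 libraries. As alternatives, DESeq2 1.42.0, limma-voom 3.58.1, other scalings, filters and covariates, a replicate block and the omission of each library in turn were run, and the scripts were tested on simulated data. Transcript shares used an exact permutation test (scipy 1.17.1). Identical stretches were searched with blastn 2.17.0 (at least 100 bases at 95% identity).

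Members and lists were chosen with earlier results of these data known. The text names all members, every gene of the other pathway lists that passed in the 12 or the 10 libraries, and otherwise the 2 of smallest p in the 10. Marker lists are given as sums. Mars, Pvalb, Pdgfra, Col1a2, Col3a1, Hba-a1, Plin1, Arc, Egr1, Fos, Gdf15, Fgf21, Serp1, Pycr1, and Iars and Nupr1 in the females, were named after their values were seen. Total estimated counts of 66490481 to 86891563 per library leave counting error small for all members but Trib3 and Chac1. No pair of libraries of 1 group agreed within counting noise, so none was treated as a duplicate deposit.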

Additional observations from a re-analysis of the deposited data

How the results depend on the processing

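The direction of Atf4, Ddit3, Atf5, Trib3, Chac1 and Herpud1 (lower in Q84) held in every alternative run on the 12 and the 10 libraries, where leaving out 1 library gave Atf4 log2 fold changes of -0.31 to -0.21 in the 12 and -0.34 to -0.27 in the 10. Asns turned positive with the replicate block (0.022) in the 12, and in the 10 with total count scaling (0.009), TMM without mitochondrially encoded genes (0.002), length-scaled TPM (0.012), genotype alone (0.030) and the replicate block (0.027), and ranged from -0.054 to 0.027 with 1 library left out. Xbp1 ranged from -0.041 to 0.045 in the 12 with 1 library left out. None of these cases passed the test.

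The number of genes called moved most. In the 12 libraries it was 1, against 620 with DESeq2, 15 with total count scaling, 15 with no filter, 193 with genotype alone (Atf4 then passing, adjusted p = 0.0496) and 638 with the replicate block, and 0 to 1082 with 1 library left out, the most without Q84 female 5, 51 without WT female 2 and 42 without WT male 1. In the 10 it was 1207, against 1931 with DESeq2, 701 with the replicate block, and 680 to 1978 with 1 left out (680 without Q84 male 1, 740 without WT female 3, 1978 without WT male 1). In the 8 females it was 0, against 149 with DESeq2 and 0 to 843 with 1 left out, and in the 6 females 891, against 1507 with DESeq2 and 567 to 985. The cause was not tested.

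In the 10 libraries Ddit3 also missed the threshold with no filter (adjusted p = 0.0527), length-scaled TPM (0.0687) and genotype alone (0.0571), Atf3 with length-scaled TPM (0.117), and Sec24d with no filter (0.0704), length-scaled TPM (0.112) and genotype alone (0.0993). Of 9 same-numbered pairs of libraries, 5 correlated above 0.1 in their deviations from the group means (range -0.217 to 0.315). Differently numbered pairs were not compared, so these values cannot decide whether replicate numbers pair the libraries. With the replicate block, Atf4 (-0.28, adjusted p = 0.113), Ddit3 (-0.32, 0.137), Atf3 (0.0582) and Sec24d (0.141) did not pass. Of 24 groups of 6 values checked for a sample apart from the rest, 0 met the criterion.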
